A study of Mus musculus with 6 samples.

Results

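The guanylate-binding proteins (GBPs) and the immunity-related GTPases (IRGs) are GTP-hydrolysing enzymes of the dynamin type that cells make in response to interferon. The genes described here were fixed by name in the deposited count table: Gbp2, Gbp3, Gbp5, Gbp7 and Gbp9 of the GBP family, and Irgm1, Irgm2, Igtp, Iigp1 and Ifi47 of the IRG family. All 10 had a row, of 38207 genes and loci in all. The table holds nanopore cDNA read counts of microglia isolated from the brains of wild-type (WT) mice. There were 3 libraries after sham surgery and 3 after tMCAO (a surgical model of ischemic stroke in which a brain artery is blocked for a while). Each library pooled 30 mice, with no further allele or agent in either group. The sources used here do not give the time after surgery, the mice's age or how the cells were isolated. They also do not say that pools were handled independently, and each p-value then reflects only how much these pools varied, which may be technical.

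GBP and IRG genes are textbook targets of interferon-gamma, the type II interferon, which acts in part through the transcription factor IRF1, and several also respond to type I interferons through a complex that holds STAT2 and IRF9. Their proteins assemble on the membranes of vacuoles that hold parasites or bacteria and on bacterial surfaces, help to break them open, and so expose microbial products to the inflammasomes. Among IRGs, Irgm1, Irgm2 and Igtp (also called Irgm3) encode regulators that sit on the cell's own membranes and keep the effector IRGs, such as those of Iigp1 (Irga6) and Ifi47 (Irgd), in check.

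The DNA before the genes' start sites was set out first because most members with an entry held an interferon-linked motif there. The members were listed as interferon-induced genes and some are near copies, so such motifs are no independent support. RefSeq promoter windows (build GRCm38.p6) were found by symbol for 8 of the 10 members, with none for Gbp9 and Iigp1. The 250 bases before each start were searched on both strands for the core of the interferon-stimulated response element (ISRE, letters GAAANNGAAA), which is bound by the complex that holds STAT2 and IRF9 and by other IRFs. They were also searched for the core of the gamma-activated sequence (GAS, letters TTCNNNGAA), a site class of interferon-gamma signalling. The ISRE core was present in 7 of 8 members, all except Ifi47, against 2.98% of all 32851 RefSeq windows. The GAS core was present in 4 of 8 (Gbp5, Gbp7, Irgm2 and Igtp), against 7.02% of windows, and both cores in those same 4, against 0.332%. A listed gene was counted if any of its starts held the core, whereas the shares of windows count each start on its own. Of 16 non-GTPase genes on a list of type I interferon targets, 8 held the ISRE core and 4 the GAS core. Of 10 on a list of type II targets, 1 held the ISRE core and 1 the GAS core, so the GAS core did not mark that list. A match is a description of letters and does not show that a factor binds there.

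The 110 bases before the start are printed for the 6 members with an ISRE core in that stretch and for Ifit1 and Isg15, 2 type I interferon targets that rose after tMCAO (1.71 ± 0.33 and 2.28 ± 0.38 on the log2 scale, adjusted p = 0.00413 and 0.00642 in edgeR's quasi-likelihood test), for comparison. Capitals mark every ISRE or GAS core, and each sequence is written 5′ to 3′ on the strand of its gene.
Irgm1 (chr11:48871421-48871530, minus strand): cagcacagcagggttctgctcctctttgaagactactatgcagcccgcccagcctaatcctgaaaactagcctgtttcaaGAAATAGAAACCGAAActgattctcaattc
Irgm2 (chr11:58214867-58214976, plus strand): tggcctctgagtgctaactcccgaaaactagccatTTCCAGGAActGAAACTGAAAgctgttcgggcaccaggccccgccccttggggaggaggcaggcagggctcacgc
Igtp (chr11:58199446-58199555, plus strand): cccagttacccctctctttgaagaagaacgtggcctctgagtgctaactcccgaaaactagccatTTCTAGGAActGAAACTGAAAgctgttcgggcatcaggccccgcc
Gbp2 (chr3:142620553-142620662, plus strand): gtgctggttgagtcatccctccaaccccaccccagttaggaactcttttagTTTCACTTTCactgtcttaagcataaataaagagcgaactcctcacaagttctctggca
Gbp3 (chr3:142559934-142560043, plus strand): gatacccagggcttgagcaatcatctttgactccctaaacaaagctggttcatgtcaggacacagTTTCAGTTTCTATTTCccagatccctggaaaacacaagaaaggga
Gbp7 (chr3:142530226-142530335, plus strand): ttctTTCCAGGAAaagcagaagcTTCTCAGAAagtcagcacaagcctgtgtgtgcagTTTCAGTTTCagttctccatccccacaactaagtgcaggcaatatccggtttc
Ifit1 (chr19:34640779-34640888, plus strand): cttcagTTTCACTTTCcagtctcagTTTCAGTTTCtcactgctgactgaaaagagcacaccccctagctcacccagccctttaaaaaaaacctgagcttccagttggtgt
Isg15 (chr4:156200819-156200928, minus strand): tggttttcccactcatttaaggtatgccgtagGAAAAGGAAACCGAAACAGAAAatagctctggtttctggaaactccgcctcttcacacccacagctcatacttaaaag

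Irgm1 and Gbp3 each carried 2 overlapping ISRE cores, which in Irgm1 began 30 and 24 bases before the start. The stretches of Irgm2 and Igtp, neighbouring genes on chromosome 11, were near copies of each other. Shifted by 30 bases, 78 of 80 aligned bases were identical (97.5%), with an identical run of 38 bases, and both held a GAS core followed closely by an ISRE core. In Gbp5, which is not printed, the ISRE core began 165 bases before the start and GAS cores began 245 and 52 bases before it.

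**Figure D1:**
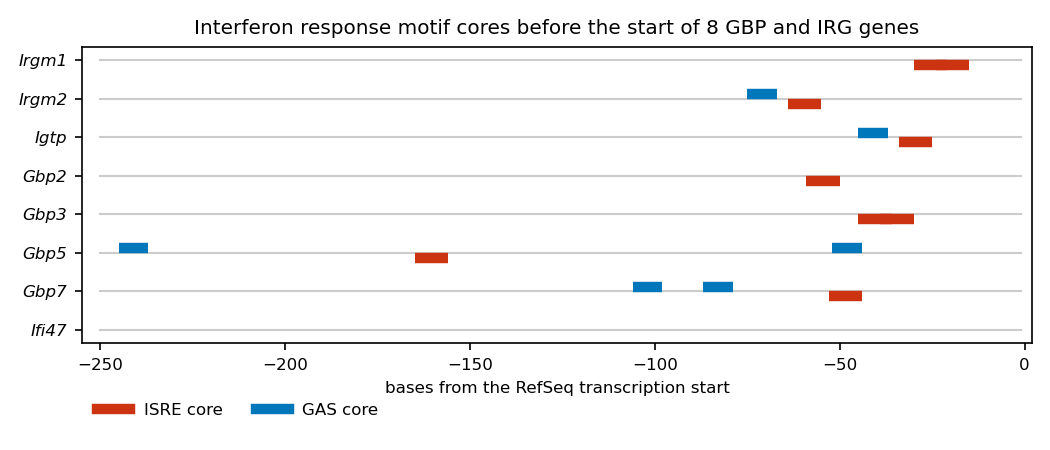
Positions of ISRE cores (red) and GAS cores (blue) in the 250 bases before the RefSeq start of 8 GBP and IRG genes, with the x axis in bases from the start. In 6 of the 8 genes an ISRE core lies within 64 bases of the start, in Gbp5 it begins at -165, and Ifi47 shows neither core.

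Total counts ran from 2371235 to 2614512 in sham and from 1855495 to 2030550 in tMCAO libraries, so that 1 read was worth 0.382 to 0.539 CPM (reads scaled to a common library total). Microglial markers were abundant: P2ry12, a purine receptor, held 3562 ± 302 CPM in sham and 2300 ± 352 in tMCAO (mean ± SD, n = 3), and Tmem119 ran from 209 to 307 CPM in sham and from 193 to 297 in tMCAO. On the second principal component of log2 CPM (20.6% of the variance), tMCAO 3 lay at 53.5, tMCAO 1 and 2 at -31.3 and -24.1, and sham libraries between -10.8 and 13.5, with sham 1 nearest to tMCAO 3. Results were therefore also computed without these 2 libraries, a choice made after seeing the data. Of 13127 genes tested with edgeR's quasi-likelihood test, 18.1% were called changed at a Benjamini-Hochberg adjusted p under 0.05, with 9.17% called higher and 8.96% lower after tMCAO.

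The comparison of tMCAO with sham addresses whether the interferon-induced GTPase genes of microglia differ after ischemic stroke. Irgm1 rose 2.31-fold, and it was the 1 member called. Another 8 members were tested and did not pass, and Iigp1 had too few reads to be tested. The count of 1 in 9 tested members, in the higher direction, stands beside 9.17% of all tested genes called higher, so the members' share is near the background. None was called lower. The estimates of 7 tested members were above 0 and those of Gbp3 and Gbp7 below it, with a median log2 fold change of 0.40 over the 9, against 0.00 over all tested genes. In such pools, fewer cells of a type and less RNA per cell cannot be told apart.

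Irgm1 (ENSMUSG00000046879) encodes the regulator that is best known for control of mycobacteria and of autophagy. It held 26.6, 18.6 and 13.004 CPM in sham 1 to 3 and 42.8, 58.7 and 44.7 CPM in tMCAO 1 to 3, that is 63, 47 and 34 reads against 87, 109 and 84. Every tMCAO library was above every sham library. The log2 fold change was 1.21 ± 0.26 (SE), with a 95% interval from 0.65 to 1.77 and an adjusted p = 0.00703 in edgeR's quasi-likelihood test. The call held under each of the 14 alternatives run, with log2 fold changes from 0.96 to 1.49 and adjusted p-values from 4.20e-06 to 0.0342 (edgeR, DESeq2 or limma voom). Without sham 1 and tMCAO 3, it was 1.49.

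Irgm2 and Igtp, the other regulators, had equal read totals in both groups before scaling, 146 for Irgm2 and 183 for Igtp over 3 libraries each, with fewer reads in all in tMCAO. Irgm2 (ENSMUSG00000069874) held 22.4, 18.2 and 18.0 CPM in sham 1 to 3 and 23.6, 21.6 and 30.9 CPM in tMCAO 1 to 3, and the groups overlapped. Its log2 fold change was 0.27 ± 0.25 (adjusted p = 0.492 in edgeR's test), with an interval from -0.26 to 0.80. Igtp (ENSMUSG00000078853) was tighter in sham, at 24.9, 23.4 and 24.9 CPM, against 27.6, 30.7 and 37.3 CPM in tMCAO. The groups of Igtp did not overlap in CPM, but the value with TMM scaling was small, 0.27 ± 0.22 (adjusted p = 0.428), with an interval from -0.20 to 0.75. For both genes the interval left out a rise of 1 or more on the log2 scale, which is the size seen for Irgm1. No test compared the fold of Irgm1 with those of Irgm2 and Igtp. Irgm2 and Igtp overlap on the same strand in GENCODE M21 and share part of their transcript sequence (15.9% of Igtp's 31-base words occur in Irgm2), so some reads could be assigned to either gene.

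The effector genes were sparse. Ifi47 (ENSMUSG00000078920) had 6, 9 and 2 reads in sham (2.53, 3.57 and 0.765 CPM) and 10, 16 and 12 in tMCAO (4.92, 8.62 and 6.39 CPM). The groups did not overlap, and the estimate of 1.40 ± 0.52 exceeded that of Irgm1, but it did not pass (adjusted p = 0.0772, interval 0.29 to 2.51). Iigp1 (ENSMUSG00000054072) had 1, 1 and 8 reads in sham (0.422, 0.396 and 3.06 CPM) and 8, 18 and 12 in tMCAO (3.94, 9.70 and 6.39 CPM). All tMCAO libraries were again higher, but sham 3 and tMCAO 1, with 8 reads each, had exact 95% Poisson intervals of 1.32 to 6.03 and 1.70 to 7.76 CPM. Poisson intervals cover counting error only, and PCR reads carry no molecular identifiers. With no filter on low counts, 4 of 10 members were called higher, Irgm1, Iigp1 (2.24 ± 0.57, adjusted p = 0.00188), Gbp2 (adjusted p = 0.0381) and Ifi47 (adjusted p = 0.0395), against 6.47% of the 31736 genes in that edgeR fit. That share includes genes with too few reads to pass the filter, so it is not a like background for members that passed it. The adjusted p of Irgm1 was 4.20e-06 in that fit and 0.00703 with the filter, both in edgeR's test. With no filter the median over all genes was -0.14 and over the 10 members 0.56 (log2 fold change).

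**Figure D2:**
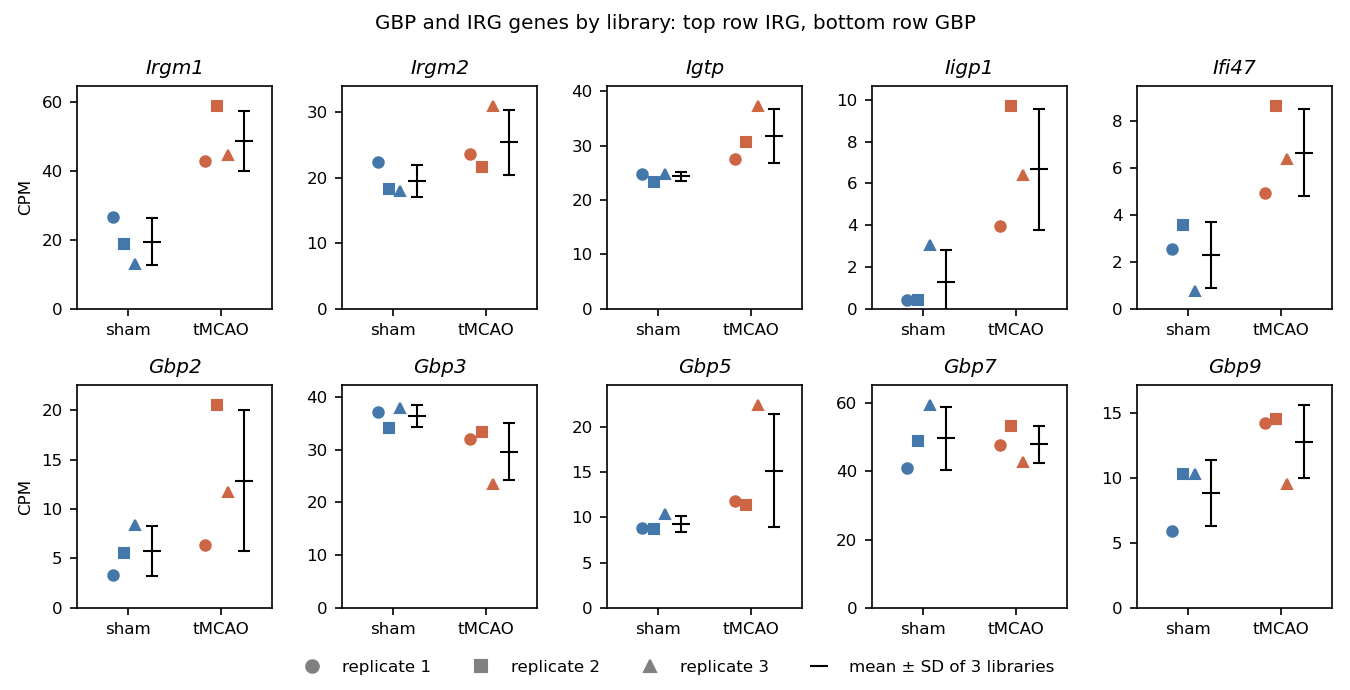
CPM of each of the 10 genes in each library (blue, sham; orange-red, tMCAO; marker shapes give the replicate number), with mean ± SD of 3 libraries in black; each panel has its own axis from 0, and the lower bar of Iigp1 in sham is cut at 0. Irgm1 shows the clear separation of groups, 13.004 to 26.6 against 42.8 to 58.7 CPM, whereas Gbp7 and Irgm2 overlap.

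No GBP gene was called in either direction. Gbp2 and Gbp5, whose proteins bind the outer membrane of Gram-negative bacteria and promote inflammasome activation, had estimates above 0. Gbp2 (ENSMUSG00000028270) held 3.37, 5.55 and 8.41 CPM in sham and 6.40, 20.5 and 11.7 CPM in tMCAO 1 to 3. The groups overlapped because tMCAO 1 lay below sham 3, and tMCAO 2 stood above every other library. The log2 fold change of Gbp2 was 1.01 ± 0.45 with an adjusted p = 0.143 in edgeR's test. Without tMCAO 1 it was called (1.37, adjusted p = 0.0411), and over the 14 alternatives its adjusted p ran from 0.0381 to 0.487. Gbp5 (ENSMUSG00000105504) held 8.86, 8.72 and 10.3 CPM in sham and 11.8, 11.3 and 22.4 CPM in tMCAO. Its groups did not overlap, yet most of the difference came from tMCAO 3: the log2 fold change was 0.59 ± 0.34 (adjusted p = 0.252) with all libraries and 0.18 without tMCAO 3.

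Gbp9, Gbp3 and Gbp7 completed the family. Gbp9 (ENSMUSG00000029298) held 5.90, 10.3 and 10.3 CPM in sham and 14.3, 14.6 and 9.59 CPM in tMCAO, with tMCAO 3 below sham 2 and 3 (0.40 ± 0.33, adjusted p = 0.432 in edgeR's test). Gbp9 overlaps Gbp4 and Gbp8 on the same strand in GENCODE M21, and 18.3% of its 31-base words occur in other genes, so its counts are uncertain. Gbp3 (ENSMUSG00000028268) was the 1 member with every tMCAO library below every sham library, at 37.1, 34.1 and 37.9 CPM in sham and 32.0, 33.4 and 23.4 CPM in tMCAO. That difference of -0.42 ± 0.20 did not pass (adjusted p = 0.168), and its interval ran from -0.85 to 0.01. Gbp7 (ENSMUSG00000040253), whose protein has been tied to the delivery of antimicrobial enzymes to vacuoles, held 40.9, 48.8 and 59.3 CPM in sham and 47.8, 53.4 and 42.6 CPM in tMCAO. The groups of Gbp7 overlapped (-0.17 ± 0.19, adjusted p = 0.578), and the interval from -0.59 to 0.24 left out a 2-fold change either way. Gbp3 and Gbp7 are next to each other in the chromosome 3 cluster, where the coding genes run Gbp5, Gbp7, Gbp3, Gbp2b and Gbp2.

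**Figure D3:**
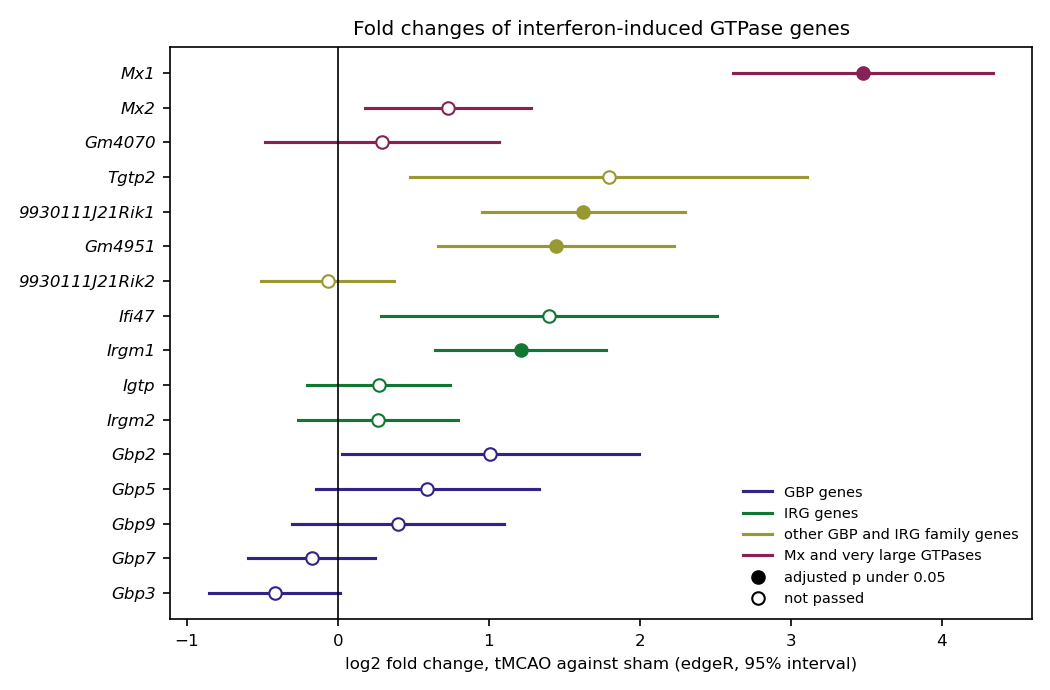
Log2 fold changes (x axis, tMCAO against sham, edgeR) with 95% intervals for tested GTPase genes, coloured by family; filled points passed an adjusted p of 0.05. Irgm1, Gm4951, 9930111J21Rik1 and Mx1 passed, and the intervals of 6 of the 9 tested members cross 0; Gvin1, whose interval runs from -3.52 to 6.09, is not drawn.

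Groups did not overlap in CPM for 5 of the 9 tested members (4 higher, Gbp3 lower), against 37.8% of all tested genes. With library totals as the only scaling, as in CPM, the median log2 fold change of all tested genes was 0.11. The estimates of the 9 members tested kept their sign under each of the 14 alternatives. Within tMCAO, the members did not follow 1 library. tMCAO 2 was the highest for 7 of them (Gbp2, Gbp3, Gbp7, Gbp9, Irgm1, Iigp1 and Ifi47) and tMCAO 3 for Gbp5, Irgm2 and Igtp. The ratio of highest to lowest tMCAO library ran from 1.25 for Gbp7 to 3.20 for Gbp2.

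Summed over the family, the 5 IRG members held 76.8, 64.2 and 59.7 CPM in sham and 103, 129 and 126 CPM in tMCAO. Much of that difference was Irgm1, and the 9 members other than Irgm1 summed to 157 ± 13.8 CPM in sham and 189 ± 15.8 in tMCAO (mean ± SD, n = 3). The 5 GBP members held 96.2, 107 and 126 CPM in sham and 112, 133 and 110 CPM in tMCAO, so their groups overlapped. The make-up of the members' reads shifted accordingly. Irgm1 made up 11.1 ± 4.19% of them in sham and 20.4 ± 1.75% in tMCAO, Gbp3 20.6 ± 0.819% and 12.5 ± 2.47%, and Gbp7 28.0 ± 4.13% and 20.2 ± 2.05%.

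Of 16 other genes listed for these families, 15 had a row, 12 had a read and 4 were tested, of which 2 rose. Among all tested genes 9.17% were called higher. Gm4951 (ENSMUSG00000073555), another IRG family gene, rose from 3.18 ± 0.562 to 9.57 ± 1.05 CPM (1.45 ± 0.36, adjusted p = 0.0153 in edgeR's test, higher in 3 of 3 libraries). That call was lost with DESeq2 (adjusted p = 0.0706), without sham 1 (0.0711), without tMCAO 2 (0.0540) and without sham 1 and tMCAO 3 (0.0756), and its lowest value among the alternatives was 0.00962. 9930111J21Rik1, predicted as an IRG gene, rose from 9.32 ± 4.08 to 31.3 ± 3.31 CPM (1.63 ± 0.31, adjusted p = 0.00348). Its near copy 9930111J21Rik2 held 53.2 ± 13.2 and 55.0 ± 6.64 CPM (-0.07 ± 0.21, adjusted p = 0.860). Tgtp2 (Irgb6), an effector IRG that is among the first to load onto vacuoles, had 0, 8 and 9 reads in sham and 21, 16 and 13 in tMCAO (1.79 ± 0.60, adjusted p = 0.0590). Gbp4 had 1, 10 and 7 reads in sham and 8, 4 and 1 in tMCAO, Gbp6 had 4 and 2 over 3 libraries each and Gbp8 had 5 and 1. Gbp2b, Gbp10 and Gbp11 had no read in any library, which allows up to 1.15 to 1.62 CPM by counting error alone. Of Gbp10's 31-base words 80.8% occur in Gbp6, and 34.3% of Gbp11's occur in other genes, so reads of these genes may be counted under a copy. The genes F830016B08Rik, Gm12185, Irgq and Irgc1 had at most 7 reads in a library.

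Several of these genes are close copies, and their reads split between the copies differently from library to library. Tgtp1, which shares 83.2% of its 31-base words with Tgtp2, had 4, 23 and 7 reads in sham and 0, 2 and 1 in tMCAO, the opposite order to Tgtp2. Summed, the Tgtp pair held 4, 31 and 16 reads in sham and 21, 18 and 14 in tMCAO, and the groups overlapped (0.31 ± 0.54, adjusted p = 0.738 in edgeR's test on summed copies). The summed pair 9930111J21Rik1 and 9930111J21Rik2 likewise did not pass (0.35 ± 0.20, adjusted p = 0.250), although the first copy took 9.49% to 18.4% of the pair's reads in sham and 34.6% to 38.1% in tMCAO. Summing was chosen after these values were seen. Gvin1 and Gm4070, very large interferon-inducible GTPase genes that share 99.0% of Gvin1's words, split their reads nearly evenly in sham 1, tMCAO 2 and tMCAO 3, while Gvin1 had 0 of 238 in sham 3 and 0 of 242 in tMCAO 1. Their sum was higher in every tMCAO library (79.3, 59.5 and 91.0 CPM against 119, 121 and 122, 0.54 ± 0.18, adjusted p = 0.0479). Among the 10 members the sharing was lower, from 2.20% of words for Irgm1 to 18.3% for Gbp9.

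**Figure D4:**
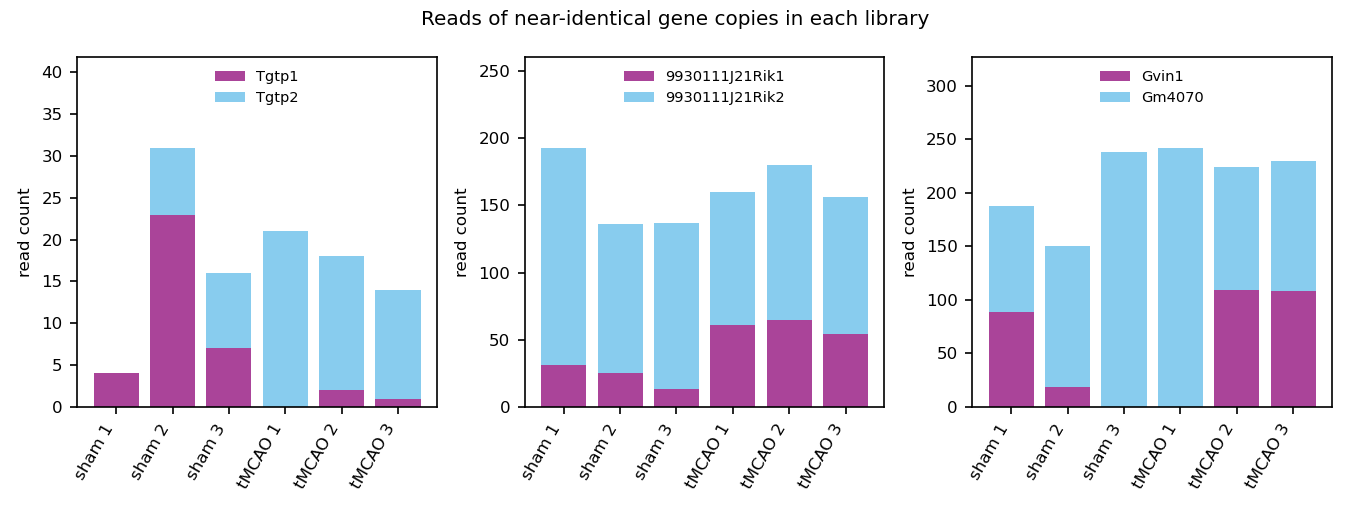
Read counts of 3 pairs of near-identical genes in each library, stacked by copy. The Tgtp1 part shrinks to 0 to 2 reads in tMCAO while Tgtp2 grows, and Gvin1 is at 0 in sham 3 and tMCAO 1 although the pair's sum stays between 150 and 242 reads.

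Of 11 listed ligands and inducing cytokines, 7 had no read, and 1 of 3 tested rose, beside 9.17% of all tested genes. Ifng, the type II interferon, had 0, 1 and 4 reads in sham and none in tMCAO, where a count of 0 allows up to 1.48 to 1.62 CPM. Ifnb1, the type I interferon interferon-beta, held 4.64, 3.96 and 10.3 CPM in sham and 9.85, 3.77 and 45.3 CPM in tMCAO, so that tMCAO 3 alone stood out, and it did not pass (1.54 ± 1.04, adjusted p = 0.383 in edgeR's test; -0.01 without tMCAO 3). Il18, a cytokine that induces interferon-gamma, held 41.3, 45.6 and 43.6 CPM in sham and 45.8, 31.3 and 33.0 CPM in tMCAO, and the groups overlapped (-0.37 ± 0.20, adjusted p = 0.235). The called gene was Il12b, the p40 chain of interleukin-12, from 1, 1 and 5 reads to 12, 10 and 30 (3.11 ± 0.68, adjusted p = 0.00882). It was not called by limma voom (0.0514) or without sham 1 and tMCAO 3 (0.0670), and the lowest value among its alternatives was 1.28e-06.

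Of 6 tested receptor and kinase genes, 1 was called, a share near the 18.1% of all tested genes. Ifnar1, a chain of the type I receptor, rose from 18.2 ± 4.19 to 40.9 ± 7.16 CPM (1.04 ± 0.24, adjusted p = 0.0105 in edgeR's test, 0.0528 without sham 3, lowest 0.000229). Ifngr1, the ligand-binding chain of the type II receptor, held 351 ± 10.8 and 399 ± 14.7 CPM (0.07 ± 0.14, adjusted p = 0.774, interval -0.23 to 0.37). Ifngr2, its signalling partner, held 99.9, 96.3 and 87.6 CPM in sham and 180, 161 and 50.6 in tMCAO, and Ifnar2 held 59.9, 132 and 151 and then 199, 212 and 29.8. For both, tMCAO 3 lay below every sham library while tMCAO 1 and 2 lay above, and without tMCAO 3 Ifngr2 was called (0.71, adjusted p = 0.00822).

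Of 5 tested transcription factors of the pathway described here, 3 rose and Irf2 and Irf8 did not pass. Among all tested genes 9.17% were called higher. Stat2 rose from 2.84 ± 1.80 to 19.4 ± 5.90 CPM (2.64 ± 0.45, adjusted p = 0.00182 in edgeR's test). Irf9, the partner of Stat2 on the ISRE, rose from 33.4 ± 3.44 to 64.6 ± 9.95 CPM (0.83 ± 0.19, adjusted p = 0.0103). Irf1, which drives GBP genes, rose from 34.4 ± 2.68 to 64.3 ± 11.2 (0.78 ± 0.19, adjusted p = 0.0126). The calls of Irf9 and Irf1 were lost with 1 library left out: Irf9 without sham 3 (0.0560, lowest 0.000693) and Irf1 without sham 1 (0.0538) or tMCAO 2 (0.0539, lowest 0.00145). Of 6 tested feedback inhibitors, 1 rose, Usp18, which blocks the type I receptor, from 4.79 ± 0.169 to 26.4 ± 11.2 CPM (2.32 ± 0.34, adjusted p = 0.000656).

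Beside the GTPases, type I interferon targets rose in 15 of 16 tested genes of a list of 20, with a median log2 fold change of 2.75, and all but Eif2ak2 (0.48 ± 0.20, adjusted p = 0.115 in edgeR's test) passed. Ifit2, which binds foreign RNA, rose from 3.82 ± 1.48 to 79.6 ± 19.9 CPM (4.23 ± 0.30), and Oas1a, an RNA sensor, from 5.72 ± 0.887 to 64.7 ± 5.93 (3.37 ± 0.23). Mx1, the antiviral GTPase of the dynamin superfamily, rose from 2.54 ± 1.18 to 31.4 ± 12.9 CPM (3.48 ± 0.40, adjusted p = 0.000124), while Mx2 did not pass (0.73 ± 0.25, adjusted p = 0.0628). Estimates of the 9 tested GBP and IRG members ran from -0.42 to 1.40 and those of the tested type I targets from 0.48 to 4.23. The 2 ranges overlapped, and whether the members rose less was not tested. The members' range leaves out Iigp1, which was not tested in that fit. With no filter on low counts its estimate was 2.24 ± 0.57. Summed, the 20 type I targets held 229 to 272 CPM in sham and 1102 to 1337 in tMCAO, against 172 to 186 and 215 to 262 CPM for the 10 members. Type II targets that are not GTPases rose in 6 of 11 tested genes, with a median of 1.12. Cd74, the class II invariant chain, rose by 1.84 ± 0.19 and the class II chains H2-Ab1 and H2-Aa by 1.79 ± 0.19 and 1.12 ± 0.17, each with an adjusted p of 0.000957 or lower. Constitutive relatives in the dynamin superfamily rose in 1 of 7 tested genes, Opa1, which fuses mitochondrial inner membranes (0.80 ± 0.22, adjusted p = 0.0219). That call was lost in 7 of 14 alternatives: DESeq2, the replicate block, and without sham 1, sham 2, sham 3, tMCAO 2 or both sham 1 and tMCAO 3 (adjusted p from 0.0606 to 0.0883). These lists are described by counts and medians, and no difference between them was tested. Of all tested genes 9.17% were called higher, and the 1 of 7 constitutive relatives is near that share.

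**Figure D5:**
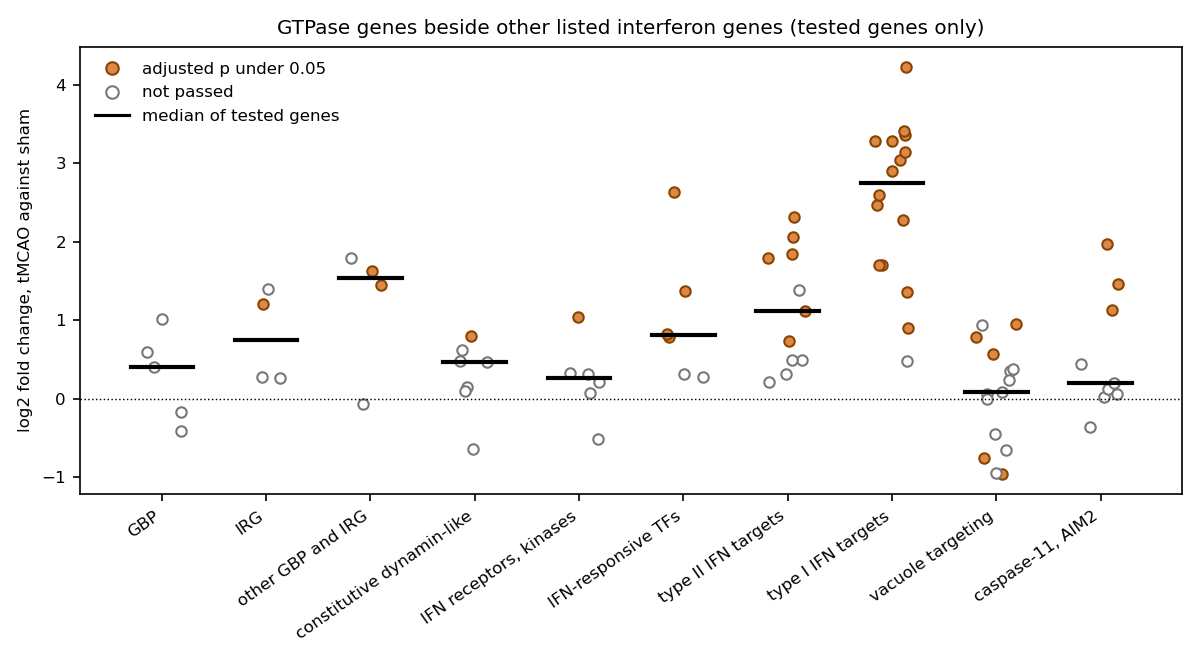
Log2 fold changes (y axis, tMCAO against sham) of the tested genes of each list, one point per gene with a random sideways shift; filled points passed an adjusted p of 0.05 and bars are medians. Type I interferon targets lie around a median of 2.75, GBP genes around 0.40 and IRG genes around 0.74. Iigp1, which was not tested, is not drawn.

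Partners that bring GBPs and IRGs to vacuoles did not move as 1 group: 3 of 15 tested genes rose and 2 fell. Among all tested genes 9.17% were called higher and 8.96% lower. Gabarapl2 (GATE-16), an ATG8 protein needed for the placement of IRGs and GBPs, fell from 284 ± 23.2 to 182 ± 27.7 CPM (-0.75 ± 0.18, adjusted p = 0.0109 in edgeR's test, 0.0522 without tMCAO 2). Map1lc3a, another ATG8 gene, fell too (-0.96 ± 0.26, adjusted p = 0.0238). Sqstm1, the ubiquitin and autophagy adaptor p62, rose from 69.9 ± 5.48 to 148 ± 39.8 CPM (0.95 ± 0.19, adjusted p = 0.00485). Inflammasome genes rose in 3 of 9 tested: Nlrp3 (1.46 ± 0.20), Il1b (1.97 ± 0.27) and Ninj1 (1.13 ± 0.21), which ruptures the membrane of dying cells. Each had an adjusted p of 0.00304 or lower in edgeR's test, and a link of these rises to GBPs was not tested. Aim2 (0.13 ± 0.16), Casp4 (caspase-11, 0.44 ± 0.25) and Gsdmd (0.06 ± 0.15), which act closest to GBPs in mouse macrophages, did not pass.

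Markers of other cells moved with the groups beside the rise of Irgm1. Among all tested genes 9.17% were called higher and 8.96% lower. Monocyte markers were called higher in 4 of 7 tested and summed to 77.6 to 95.1 CPM in sham and 95.9 to 288 in tMCAO. Border-associated macrophage markers were called higher in 4 of 7 and summed to 184 to 231 and 380 to 492 CPM. Of 3 tested dendritic cell markers, Cd209a was called higher and Siglech, which is also on the microglial list, lower, while Xcr1 and Clec9a had at most 1 read in any library. T and NK cell markers, a usual source of interferon-gamma, had too few reads to test and summed to 9.28 to 17.4 CPM in sham and 7.99 to 15.6 in tMCAO over 11 genes. Of these, Nkg7 had 9, 14 and 21 reads in sham and 4, 6 and 1 in tMCAO (adjusted p = 0.0314 in edgeR's test with no low-count filter). Gzmb had 1, 1 and 0 in sham and 2, 1 and 1 in tMCAO, and the groups of the rest overlapped. Neutrophil (1 of 8), astrocyte (2 of 4), oligodendrocyte (1 of 7) and choroid plexus markers (1 of 6) were called lower in part, none higher, as were the microglial markers P2ry12, Siglech, Gpr34 and Fcrls, and none of 6 endothelial or 3 erythroid markers passed in either direction. Neuron markers had too few reads to test. Choroid plexus markers summed to 8627 to 44619 CPM in sham and 2271 to 9960 in tMCAO, ranges that overlap. Erythroid markers, though not called, summed to 955 to 6040 and 215 to 380 CPM, with a median log2 fold change of -3.68 over the 3 tested. Neutrophil markers summed to 1708 to 2197 and 382 to 1696 CPM, astrocyte markers to 136 to 408 and 63.0 to 90.5. Endothelial markers summed to 108 to 153 and 84.7 to 227 CPM. Every listed marker with a row had at least 1 read. The part of these cells in the values of Irgm1 was not tested.

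The genes whose pattern over the 6 libraries was most like the members' mean standardised log2(CPM + 1), of 4918 well-measured known genes, were Tmem97 (Pearson r = 0.996), Rrp7a (0.994), Baz2b (0.992), Ttc17 (0.991) and Gpx3 (0.990). Tmem97, a sterol-linked membrane protein, held 12.2, 13.5 and 14.9 CPM in sham and 22.2, 29.1 and 25.6 CPM in tMCAO, so it was highest in tMCAO 2, as the members' sum was. With 6 libraries in 2 groups, 369 genes reached r over 0.9, and these correlations describe the order of libraries only.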

How the data were processed

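RNA of 6 microglia pools was sequenced as PCR-amplified nanopore cDNA. Reads were aligned with minimap2, per the submitters' processing notes. The version, genome build, annotation, counting rule and strand setting were not given in the sources used here. Reads of antisense and overlapping genes could therefore not be told apart. For each gene the authors deposited whole-number counts and CPM, per the file headers; the deposited CPM differed from counts scaled to library totals by at most 4.87e-06. Of 38219 lines, 12 had no values and were left out.

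Counts were tested with edgeR 4.0.16 (R 4.3.3): filterByExpr (minimum count 10, total 15), TMM, robust quasi-likelihood F tests with group as the only term, Benjamini-Hochberg adjustment over 13127 genes. Intervals are 95% and use each gene's degrees of freedom. SE is the absolute log2 fold change divided by the root of F. DESeq2 1.42.0, limma 3.58.1 (voom), other scalings, no filter, a replicate block and omitted libraries were alternatives. The code was checked on simulated counts. Between replicates, chi-square per degree of freedom was 4.64 to 9.02, above sampling noise, and that excess may be technical. Each library was counted as 1 replicate, and the excess does not show that the pools were independent.

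The members and gene lists were chosen with earlier results of these data known. Named genes are the members, other GBP and IRG genes with a read, up to 3 genes of each list with the smallest p, 8 fixed pathway genes and the 5 genes most like the members in pattern. Further genes (Ifit1, Isg15, Irf2, Irf8, microglial markers, Gvin1, Map1lc3a, Eif2ak2, Aim2, Casp4, Gsdmd, Cd209a, Xcr1, Clec9a, Nkg7, Gzmb and those listed at 0) were named after their values were seen. Gene overlaps and shared 31-base words come from GENCODE M21 by Ensembl ID. Counts of Gm12250 (Irgb10) and Trac were not analysed here, and some listed genes are not reported here.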

Additional observations from a re-analysis of the deposited data

How the results depend on the processing

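The number of changed genes, 2380, was 4039 with no low-count filter and 1573 without sham 1 and tMCAO 3, and ran from 1254 to 2590 with 1 library left out (1254 without sham 1, 1558 without sham 3). Members changed numbered 1, 4 with no filter, and 1 to 3 with 1 library left out (2 without sham 3, with Iigp1, and 3 without tMCAO 1, with Iigp1 and Gbp2). Other GBP and IRG genes changed numbered 2, but 4 with no filter (3 higher, 1 lower), 1 with DESeq2, 1 without sham 1 and tMCAO 3, 1 with copies summed, and 1 to 2 with 1 library left out. Pathway genes changed numbered 36, and 31 to 43 under all alternatives. With upper-quartile scaling 1043 genes were higher and 1431 lower, and with library totals only 1485 and 863. The replicate block gave 1662 changed genes, 1 member (Irgm1), 2 other family genes and 32 pathway genes. Deviations of same-numbered libraries had correlations of -0.21, 0.02 and -0.17, and 0 of 6 libraries correlated best with their own number. No pairing by number was seen, but so few libraries cannot show that same-numbered pools were handled apart. Signs turned, all in genes that had not passed, for 9930111J21Rik2 with library totals (0.041), with no filter (0.0059) and without sham 1 and tMCAO 3 (0.094), for Ifnar2 with limma voom (-0.078), for Ifnb1 (-0.23) and Ifngr1 (-0.013) without sham 1 and tMCAO 3, and with 1 library left out for 9930111J21Rik2 (-0.17 to 0.12), Gm4070 (-0.029 to 0.65), Ifnb1 (-0.013 to 2.06), Tyk2 (-0.048 to 0.67) and Ifnar2 (-0.12 to 0.70). The cause was not tested. At 0.382 to 0.539 CPM per read, depth limits sparse genes such as Iigp1, Ifi47, Tgtp1, Tgtp2, Gbp4, Gbp6 and Gbp8.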
